A study of Mus musculus with 8 samples.

Results

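The RNA of normal newborn mouse back-skin epidermis was described by setting it against a mixed mouse RNA on the same array. The 4 control samples of the series, out of 8 samples in all, were used, and the EED cKO samples entered no comparison. Each control sample was total RNA from back-skin epidermis of untreated C57BL/6 newborns at P0 (day of birth) with the genotype label CTL. The alleles that the control mice carried are not given in the labels, and no number of mice per sample is stated. The skin was soaked in dispase, an enzyme that lets the epidermis be peeled from the dermis, and the sheet was dissociated with trypsin, so dermal, vascular and blood cells that stay behind are part of the sample. The other channel of every array held Universal Mouse Reference RNA, a commercial pool of RNA from mouse cell lines. Epidermal RNA was in the Cy3 channel in control replicates 1 and 3 and in the Cy5 channel in control replicates 2 and 4, and all ratios were turned to epidermis over reference. The arrays shared 1 slide and a single scan.

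The probes described were the 38148 of 55681 non-control probes whose spot was well above background in the epidermal or the reference channel on at least 3 of the 4 arrays. They gave a value for 16723 of the 21161 genes named on the array. For 13938 of these genes both channels were well above background on at least 3 arrays. The epidermal channel was well above background for 50.5% to 64.5% of the probes per array and the reference channel for 62.6% to 71.5%. No spot was saturated. The log2 ratios of the 4 arrays correlated with each other across member probes at r = 0.93 to 0.975, and the highest values, 0.965 and 0.975, belonged to the pairs with the same dye orientation. These correlations are across probes, which are not independent replicates.

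The epidermis is a stratified epithelium renewed from below. Cells of the basal layer, which make the keratins Krt5 and Krt14, are fixed to the basement membrane by hemidesmosomes. As they move up they switch to Krt1 and Krt10, then fill with the proteins and lipids of the granular layer, and end as dead cornified cells that form the barrier against water loss. Hair follicles bud from the same sheet in successive waves before birth, and melanocytes, Langerhans cells and T cells live within it. A universal reference RNA carries transcripts of many cultured cell types, so a high ratio marks a gene with more RNA in this tissue than in that pool, and a low ratio the reverse.

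Of the 16723 genes tested, 1748 were higher in epidermis than in the reference and 2396 were lower at an adjusted p below 0.05 (limma, Benjamini-Hochberg) and at least a 2-fold difference, and 12579 were not called. The share called was thus 10.5% higher and 14.3% lower, and the median log2 ratio of all genes was -0.06. Among the 13938 genes measured in both channels, 1592 (11.4%) were higher and 2132 (15.3%) were lower. Over all member probes, 2677 (7.02%) were higher and 3821 (10.0%) lower. Higher genes made up 42.2% of the called genes. When each array was centred on its median in place of loess, they made up 22.3%, with 1183 higher and 4116 lower genes and a median log2 ratio of all genes of -0.36, so a modest ratio holds only relative to the centre chosen. Probes named on the array only by a chromosome region had smaller shares of calls. Of 9041 such probes that passed the filter, 242 (2.68%) were higher and 328 (3.63%) lower, with a median of 0.003.

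**Figure D1:**
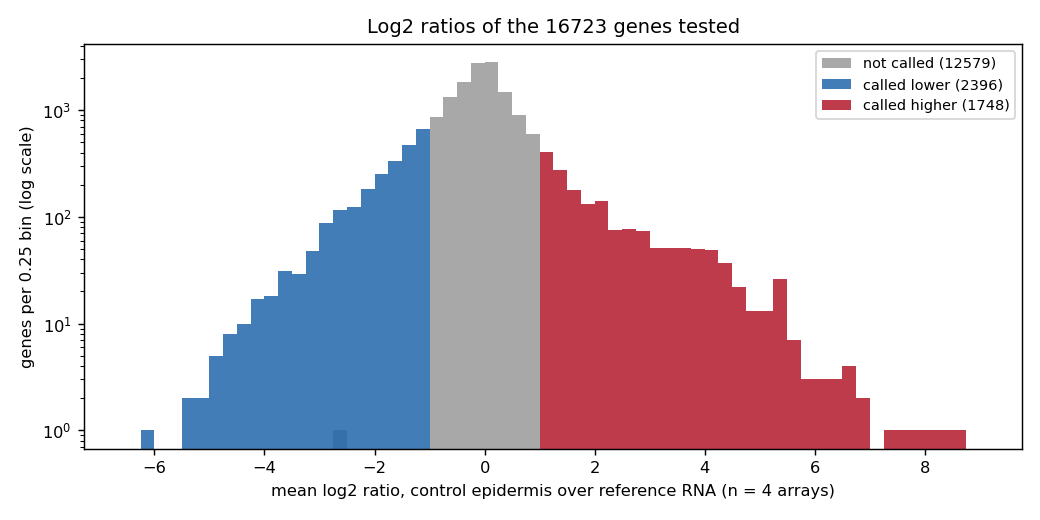
Distribution of the mean log2 ratio of control epidermis over reference RNA for the 16723 genes tested (x axis), as genes per bin on a log scale (y axis), with genes called higher in red, called lower in blue and not called in grey. The 1748 higher genes reach a log2 ratio of 8.71, and the 2396 lower genes reach -6.06.

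The reference was the same RNA on each array, so the tests weigh the spread between the 4 epidermal samples and leave out any spread of the reference. An exact two-sided permutation of signs over 4 arrays cannot give a p below 0.125, and single genes were therefore judged by the limma fit alone. Dye orientation differed between the arrays beyond the spread for 470 of 38148 probes. The median size of the dye coefficient was 0.086 on the log2 scale, against a median size of the log2 ratio of 0.31. The dye term was coded +1 and -1, so the coefficient is the distance of each orientation from their mean. The gap between the orientations is larger. For Krt10, a coefficient of 0.50 stood for means of 2.87 on the Cy3 arrays and 3.88 on the Cy5 arrays.

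All 5 markers of the epidermis were higher than in the reference on every array. Krt5, a keratin of basal cells, had log2 ratios of 3.10, 3.40, 2.84 and 3.41 in control replicates 1 to 4. Its partner Krt14 had 2.80, 3.17, 2.78 and 3.17. The values of both genes lay close together, with the Cy5 arrays, replicates 2 and 4, slightly above the Cy3 arrays. The means were 3.19 (SE 0.0596, n = 4) for Krt5 and 2.98 (SE 0.0462) for Krt14, that is 9.10-fold and 7.89-fold above the reference. Each SE given here and below is that of the limma fit after the dye term. It leaves out the gap between the dye orientations. A second Krt5 probe gave 4.01.

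Krt1, the keratin that replaces Krt5 above the basal layer, had log2 ratios of 4.30, 4.97, 4.27 and 4.90, a mean of 4.61 (SE 0.0473) or 24.4-fold. Its partner Krt10 had 2.91, 3.88, 2.84 and 3.89, a mean of 3.38 (SE 0.0474) or 10.4-fold. Both genes split by dye, Krt10 more widely, with its Cy5 arrays at 3.88 and 3.89 and its Cy3 arrays at 2.91 and 2.84. The SD of the 4 Krt10 values was 0.58, and a second Krt10 probe gave 5.01. Trp63, the transcription factor on which the epidermis depends for stratification, had 7.29, 7.57, 7.45 and 7.59. All arrays lay within a narrow band, and the mean of 7.47 (SE 0.052) is a 178-fold excess, but a second Trp63 probe gave -0.73. The adjusted p of the 5 markers in the limma fit lay between 6.63e-08 and 2.79e-07.

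The genes farthest above the reference were led by inhibitors of cysteine proteases. Cstdc5, Stfa3, Csta3, Stfa1, Cstdc4 and Stfa2l1 all belong to the stefin A family of cystatins. Cstdc5 had log2 ratios of 8.46, 8.97, 8.20 and 9.19 in replicates 1 to 4. Stfa3 had 7.99, 8.38, 7.84 and 8.58, and Stfa1 had 7.16, 7.81, 7.16 and 7.97. In these 3 genes the Cy5 arrays were above the Cy3 arrays, by less than the distance from 0. The means were 8.71 (SE 0.0677) for Cstdc5, 8.20 (SE 0.059) for Stfa3 and 7.52 (SE 0.0516) for Stfa1. Mean ratios of Csta3, Cstdc4 and Stfa2l1 were 7.78, 6.86 and 6.73. Stefin genes are near-identical copies of each other, and cross-hybridisation between their probes could not be resolved, so the values belong to the family more than to single genes.

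The other genes among the 12 highest were not stefins. Plbd1, which encodes a phospholipase B-like protein, had 8.30, 8.45, 8.21 and 8.24, a mean of 8.30 with no split by dye. Serpinb3a, a serpin of the squamous cell antigen group, had 7.17, 6.86, 6.97 and 6.78, a mean of 6.94. Tmprss4, a membrane serine protease, had 6.52, 7.05, 6.39 and 6.98, a mean of 6.74. Perp, a desmosomal membrane protein and Trp63 target, had 6.53, 6.93, 6.48 and 6.79, a mean of 6.68. Elovl4, the elongase that makes the very long acyl chains of barrier ceramides, had 6.85, 6.63, 6.84 and 6.41, also a mean of 6.68. The adjusted p of the 12 genes lay between 6.63e-08 and 9.11e-08, and every one of them had the same sign on all 4 arrays, as the rule for naming them required.

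Among the genes farthest below the reference were type I collagen, fibronectin and a simple keratin. Col1a1, the main chain of type I collagen, had log2 ratios of -5.97, -5.94, -6.13 and -6.20, a mean of -6.06 (SE 0.064) or 66.7-fold below the reference. Cdkn2a, the locus of the cell cycle inhibitors p16 and p19, had -4.99, -5.57, -5.28 and -5.61, a mean of -5.36 (SE 0.0627), and a second probe gave -1.99. Krt18, a keratin of simple epithelia, had -4.85, -4.62, -5.06 and -4.76, a mean of -4.82 (SE 0.0584). All of these lay far from 0 on each array. The chemokine Cxcl12 averaged -5.40, S100a4 -5.21, the procollagen-processing enhancer Pcolce -5.21 and mesothelin, Msln, -4.98. Dlk1, an imprinted inhibitor of adipocyte differentiation, averaged -4.97, with a second probe at -2.40. Col1a2 averaged -4.75, the galectin Lgals1 -4.74 and the metalloprotease inhibitor Timp2 -4.73, with another Timp2 probe at -2.80. Fn1, fibronectin, split by dye, with -5.28 and -5.16 on the Cy3 arrays and -3.96 and -4.25 on the Cy5 arrays, and averaged -4.66.

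**Figure D2:**
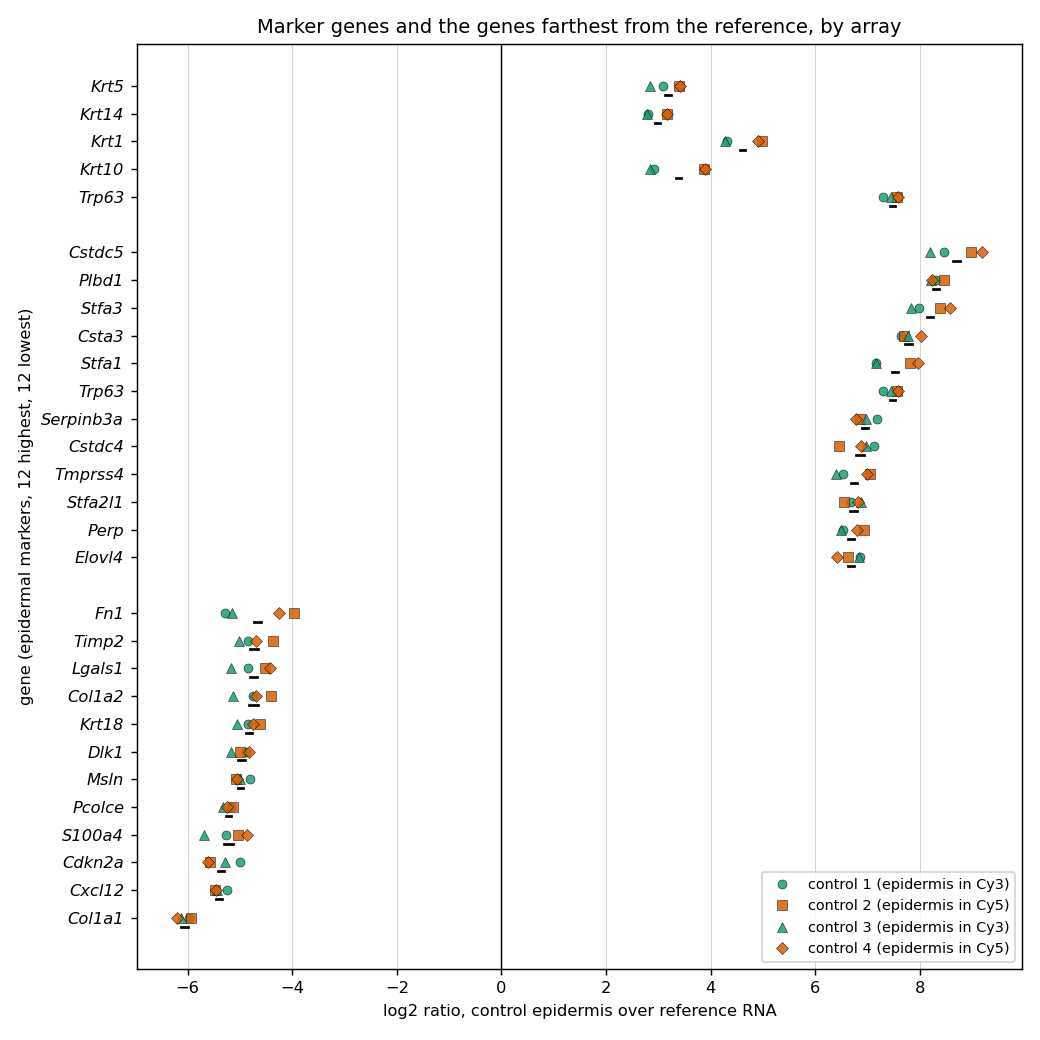
Log2 ratio of control epidermis over reference RNA (x axis) for the 5 epidermal markers and the 12 highest and 12 lowest genes (y axis). Each symbol is 1 array, green for epidermis in Cy3 and orange for epidermis in Cy5, and the black bar below the symbols is the mean ± 1 SE of the limma fit (n = 4). The highest genes lie between 6.39 and 9.19 on every array and the lowest between -3.96 and -6.20. Krt10 and Fn1 separate most by dye, and others, such as Krt1, Cstdc5 and Stfa1, separate less. The SE bars leave out this gap.

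Fewer cells of a type and less RNA per cell cannot be told apart in these bulk samples, and this holds for each gene list below. The counts of each list are to be read beside the 10.5% of all genes called higher and the 14.3% called lower. Of the basal layer and hemidesmosome list, 18 of 18 genes were tested, 13 were higher and 2 were lower, with a median log2 ratio of 3.06 against -0.06 for all genes. Col17a1, the transmembrane collagen of the hemidesmosome, averaged 5.44. Cdh3, P-cadherin, averaged 5.27, with 4.48 and 4.90 on the Cy3 arrays and 5.83 and 5.86 on the Cy5 arrays. Itgb4, the integrin chain of the hemidesmosome, was at 4.11 and Krt15 at 3.13. The 2 lower genes were Plec, a plakin that many cell types use, at -1.77, and Itgb1, the integrin chain shared by most adherent cells, at -1.08. Dst, another plakin, was at 4.21 with its brightest probe, but its probes ranged from -1.28 to 4.21.

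Of the suprabasal list, 16 of 17 genes were tested, and 15 were higher and 0 lower, with a median of 3.79. The calmodulin-like genes Calm4 and Calml3 averaged 5.29 and 4.82. Calm4 split by dye, with 4.63 and 4.76 on the Cy3 arrays and 5.91 and 5.84 on the Cy5 arrays. Lypd3, a surface protein of suprabasal keratinocytes, averaged 4.55 and Krtdap, a small secreted protein of differentiating keratinocytes, 4.46. The terminal keratin Krt2 was at 1.38. The tested member that was not called was Krt80, at 0.43.

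The cornified envelope and granular layer list had 47 genes, of which 38 were tested, 33 were higher and 0 were lower, with a median of 3.74. All 33 were measured in both channels. Kprp, a proline-rich keratinocyte protein, averaged 5.64 and Asprv1, the protease that processes filaggrin, 5.58. Lor, loricrin, the main protein of the cornified envelope, had 5.10, 5.85, 5.06 and 5.65 and averaged 5.41. Lce1b, a late cornified envelope gene, averaged 4.89. Ivl, involucrin, had 1.88, 2.97, 3.25 and 2.34 and averaged 2.61, with replicates 2 and 3 above replicates 1 and 4. The small proline-rich genes diverged from each other, with Sprr2d at 4.62 and Sprr1b at 4.18, while Sprr1a gave -0.07 and was not called. Tgm3 also gave no call at 0.13, although another of its probes gave 2.50.

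Many of these genes lie next to each other in the genome. Neighbouring measured protein-coding genes were followed along each chromosome in RefSeq order, and runs of at least 4 genes that were all called the same way were counted. There were 15 runs of higher genes, holding 98 genes, and 15 runs of lower genes, holding 65. Of all genes, 10.5% were called higher and 14.3% lower, and the number of runs that these shares alone would give was not worked out. The longest run of higher genes had 22 members and the longest run of lower genes 6. The run of 22 lay on chromosome 3, in the epidermal differentiation complex. It went from Ivl through the Lce1 genes, Kprp, Lce3b to Lce3e and Crct1 to Lce1m, with log2 ratios from 1.84 to 5.64. Just outside it, Sprr4, measured in epidermis alone, had a bound of at least 1.60-fold, and Tdpoz8 and Crnn were at -0.65 and 0.29. None of these was called, while Flg2 and Hrnr, 2 filaggrin relatives a few genes away, were at 3.83 and 3.53.

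The second run was the stefin cluster on chromosome 16, 10 genes from Csta1 to Stfa3 with ratios of 2.39 to 8.71. Its measured neighbours Ccdc58 and Cd86 were at -0.57 and 0.09 and were not called. On chromosome 1 a run of 8 serpins from Serpinb3a to Serpinb10 had ratios of 1.11 to 6.94, bordered on both sides by uncalled serpins, Serpinb13 with a bound of at least 1.29-fold and Serpinb8 at -0.08. On chromosome 18 all 8 tested desmosomal cadherin genes from Dsc3 to Dsg2 were called higher, at 1.29 to 5.31. The genes on both sides of them were lower, the neuronal cadherin Cdh2 at -3.62 and B4galt6 at -1.16. Csta1, Cstdc6, Serpinb3d, Serpinb7, Dsc2, Dsg1c and Dsg3 were above background in the reference on at most 1 array. These members passed the filter through the epidermal channel, which favours a high ratio. Runs were not counted over genes measured in both channels alone. Runs of 5 higher genes held the type I keratins from Krt9 to Krt42 on chromosome 11, the type II keratins from Krt2 to Krt78 on chromosome 15, the interleukin 1 relatives Il1f5, Il1f6, Il1f8 and Il1f9 on chromosome 2, 5 Skint genes on chromosome 4 and the kallikreins Klk7 to Klk11 on chromosome 7.

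**Figure D3:**
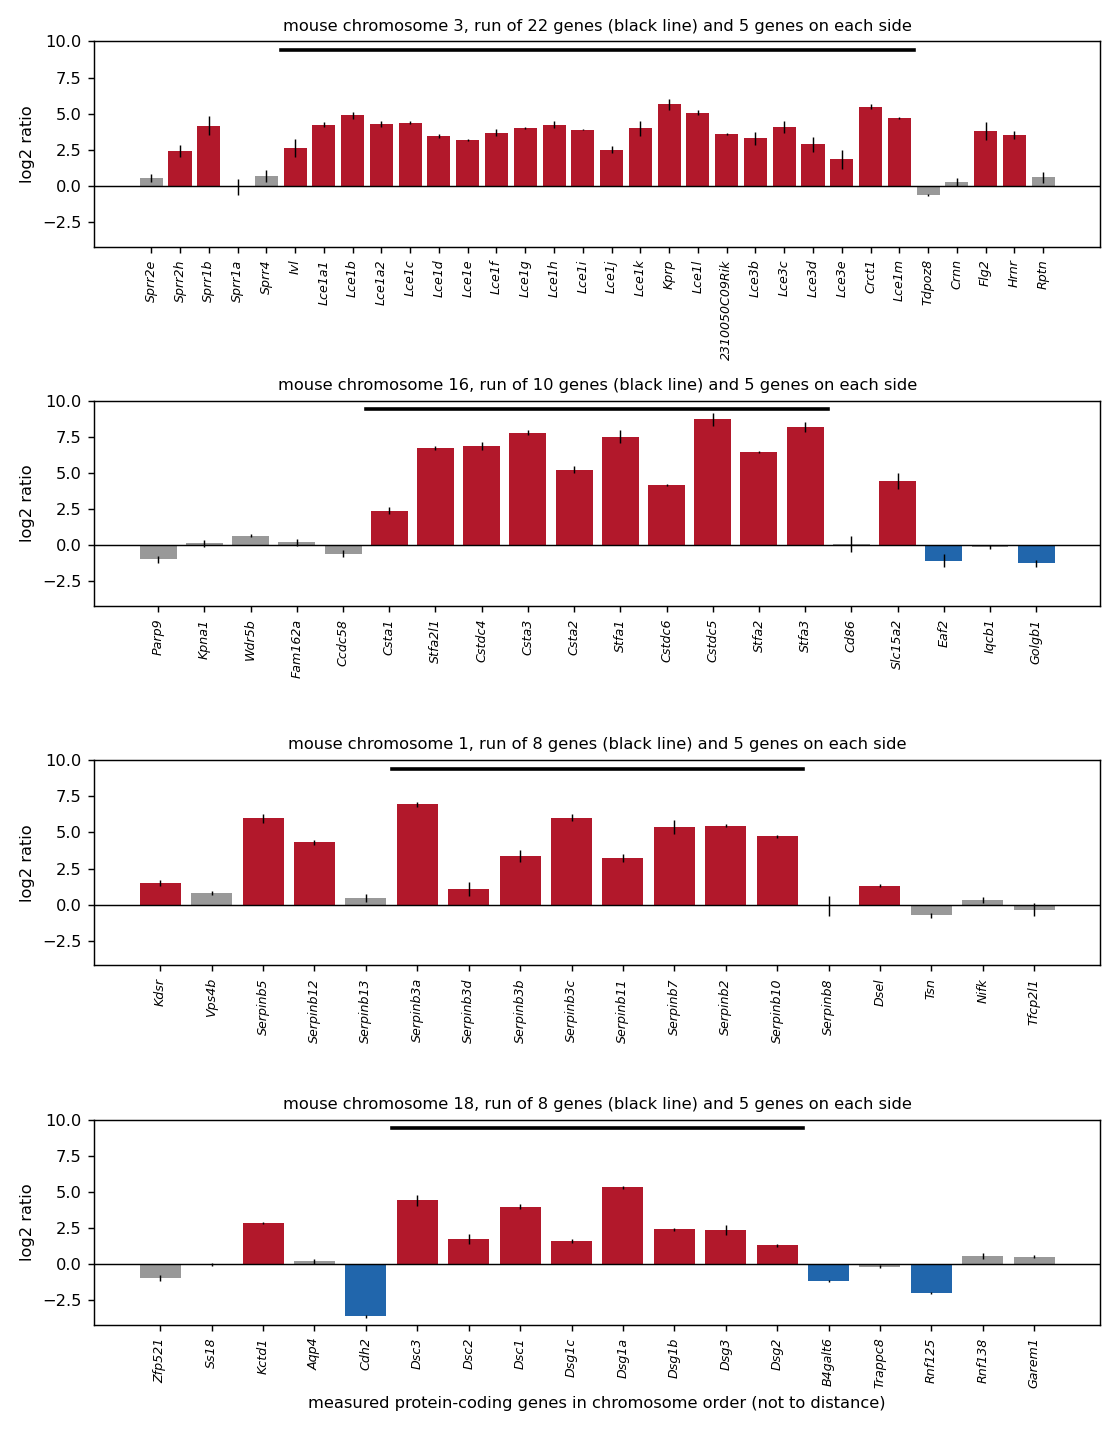
Mean log2 ratio of control epidermis over reference RNA (y axis, bars with SD, n = 4) for the 4 longest runs of higher genes and 5 measured genes on each side, in chromosome order and not to distance (x axis). Red bars are called higher, blue bars lower and grey bars not called, and the black line marks the run. The ratios stay at or above 1.84 across the 22 genes on chromosome 3 and change sign at both ends of the cadherin run on chromosome 18, at Cdh2 and B4galt6.

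Runs of lower genes were shorter. The run of 6 on chromosome 1 held the interferon-inducible genes Ifi207, Ifi204, Mndal, Ifi211 and Ifi202b and the olfactory receptor Olfr424, with ratios of -3.65 to -1.11. The other run of 6 lay on chromosome X and held near-identical genes of the Slx group, at -2.80 to -1.58. Members of tandem families share sequence, so cross-hybridisation can make neighbours look alike, and its part in the runs was not tested. Without the 2-fold limit, 5507 genes were called higher and 7198 lower, and there were 208 runs of higher genes and 413 of lower genes.

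Sequence just upstream of the start site is shown for 8 leading genes because their measured ratios are among the 100 highest or 100 lowest and the hexamer TATAAA begins 27 to 32 bases before the start. Another 3 of the highest genes, Aqp3, Ly6g6c and Plet1, also met this rule and are not shown, because the results do not otherwise describe them. The windows are the 60 bases before the RefSeq start on the strand of the gene, written 5′ to 3′, with TATAAA in capitals, from the GRCm38.p6 assembly. They are chr3:92083143-92083202 (minus strand) for Lor, chr3:93019062-93019121 (minus) for Lce1m, chr3:92339080-92339139 (plus) for Sprr2d, chr7:30787845-30787904 (plus) for Krtdap, chr1:107511363-107511422 (plus) for Serpinb2, chr1:107278372-107278431 (minus) for Serpinb3c, chr3:90603710-90603769 (plus) for S100a4 and chr2:13574251-13574310 (plus) for Vim. The first 6 genes were higher than the reference and the last 2, S100a4 and Vim, were lower.
Lor: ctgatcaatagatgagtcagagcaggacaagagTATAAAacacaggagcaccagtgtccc
Lce1m: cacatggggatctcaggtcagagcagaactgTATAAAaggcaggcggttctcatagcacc
Sprr2d: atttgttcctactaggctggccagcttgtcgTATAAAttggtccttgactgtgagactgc
Krtdap: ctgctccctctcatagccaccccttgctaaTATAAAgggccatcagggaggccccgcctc
Serpinb2: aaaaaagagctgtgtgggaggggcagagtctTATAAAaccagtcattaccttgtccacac
Serpinb3c: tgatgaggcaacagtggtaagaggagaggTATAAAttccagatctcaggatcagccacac
S100a4: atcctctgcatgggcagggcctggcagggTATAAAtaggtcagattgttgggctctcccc
Vim: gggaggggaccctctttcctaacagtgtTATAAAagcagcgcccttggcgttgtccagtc
TATAAA was searched on the gene strand 40 to 21 bases before the start, and it stood there in 281 of the 13226 promoters of measured genes that have a sequence (2.12%). A match is a string of letters and not a tested site. The comparison of motif shares between leading genes and all genes is void, because a promoter sequence was at hand for 68 of the 100 highest genes, 68 of the 100 lowest and 79.1% of all measured genes, under the 80% needed.

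The barrier lipid list had 34 of 35 genes tested, of which 23 were higher and 2 were lower, with a median of 1.92. Besides Elovl4, the ceramide synthase Cers3 averaged 4.87, with probes from 0.52 to 4.87. The lipase Lipm averaged 4.72, and the alkaline ceramidase Acer1 4.56. The lipoxygenases that oxidise barrier ceramides, Aloxe3 and Alox12b, were at 3.28 and 2.62. The 2 lower genes act in sphingolipid synthesis in many tissues. They were Cers4, a ceramide synthase, at -1.08 and Ugcg, which adds glucose to ceramide, at -1.06.

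Desmosome genes were higher in 12 of 14 cases and lower in 1, with a median of 2.38, which was 3.88 over the 11 genes measured in both channels and ranged from 2.04 to 5.12 over the other settings. Dsg1a, a desmoglein of the upper layers, averaged 5.31, the plaque protein Dsp 5.22 and Dsc3 4.41, while other probes of Dsp and Dsc3 gave 2.23 and 1.44. Dsg3, a desmoglein of the lower layers, was well above background in epidermis on all 4 arrays and in the reference on none, and was at least 4.84-fold higher. Pkp2, a plakophilin of simple epithelia and heart, was the lower gene, at -3.98, and Pkp3 gave 0.06. Among 23 genes of adherens, tight and gap junctions, 17 were higher and 0 were lower, with a median of 1.72. E-cadherin, Cdh1, averaged 5.30, the tight junction protein Cldn1 5.10 and the connexins Gjb6 and Gjb2 5.29 and 5.10. Cldn8 was measured in epidermis alone and was at least 5.08-fold higher. Cldn7 gave -0.86 and the catenin Ctnna1 -0.66, neither called.

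Of 31 tested genes for epidermal proteases and their inhibitors, 19 were higher and 3 were lower, with a median of 2.39. Besides the stefins and Serpinb3a, the serpin Serpinb5 averaged 5.98. Klk11, a kallikrein of the granular layer, averaged 5.50. Spink5, the inhibitor that restrains kallikreins in the stratum corneum, averaged 5.05. The 3 lower genes were Slpi, a secreted inhibitor of leukocyte elastase, at -4.21, the lysosomal protease Ctsl at -2.63 and Padi3, which deiminates follicle proteins, at -1.06.

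Transcription factors of the epidermis were higher in 25 of 35 cases and lower in 1, with a median of 2.92. After Trp63, Tfap2b was at 5.85 (above background in the reference on 2 arrays), Grhl1 at 5.41 and Tfap2c at 5.14. Grhl3 and Klf4, both needed for barrier formation, were at 4.64 and 3.69. Cux1 was lower, at -1.24. Factors with a ratio within 2-fold of the reference included Dlx3 at -0.13, Prdm1 at -0.18, Vdr at 0.25 and Hes1 at 0.49.

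**Figure D4:**
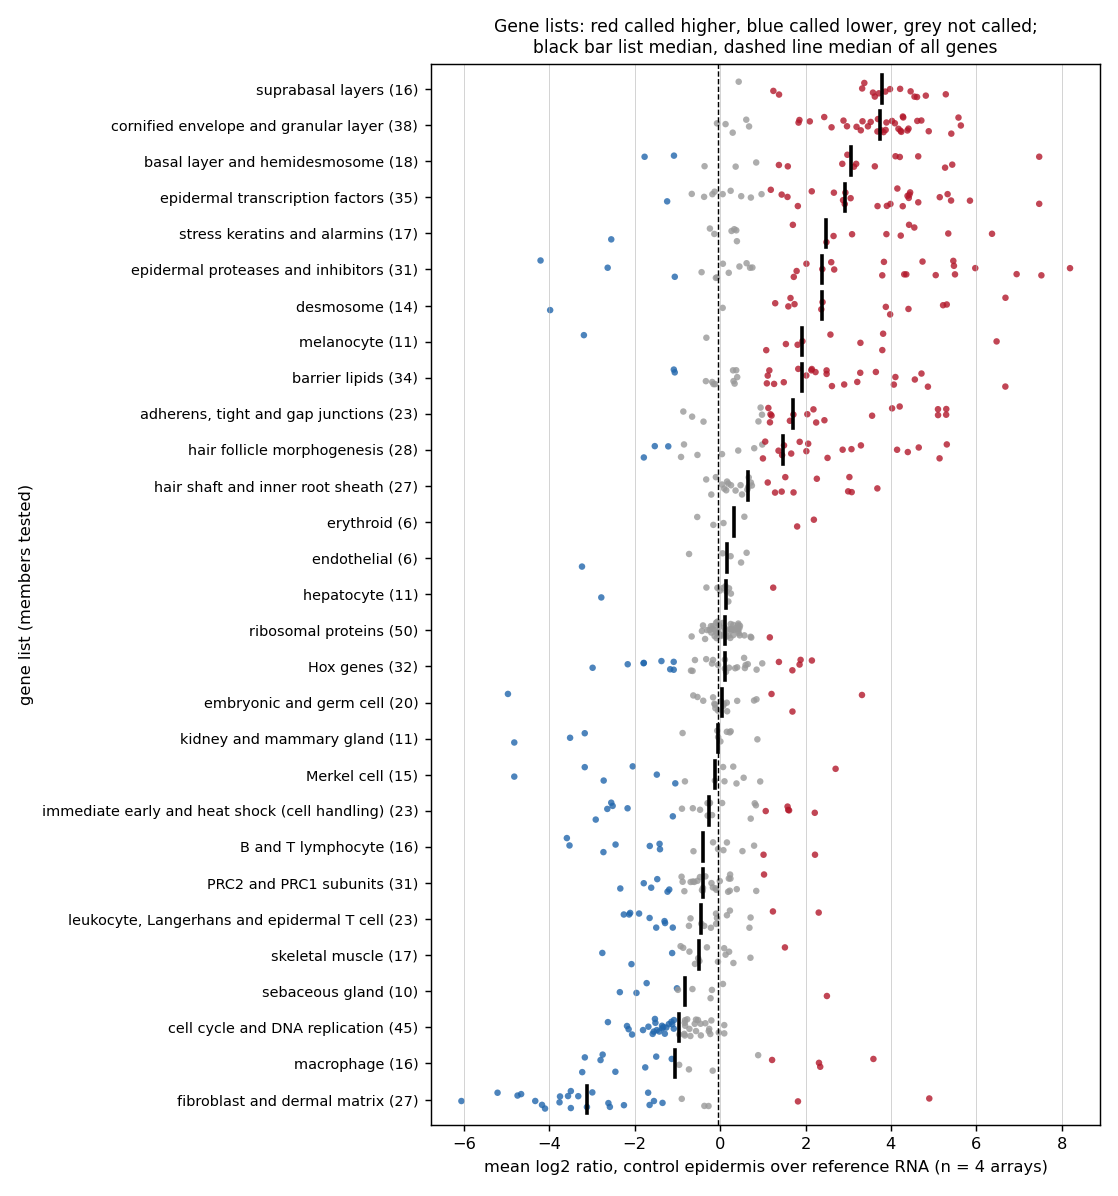
Mean log2 ratio of control epidermis over reference RNA (x axis, n = 4) of every tested member of each gene list (y axis, with the number tested), ordered by list median. Red points are called higher, blue lower and grey not called, the black bar is the list median and the dashed line the median of all genes, -0.06. The list medians run from -3.12 for fibroblast and dermal matrix to 3.79 for the suprabasal layers.

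Of 17 tested genes on the list named stress keratins and alarmins, 10 were higher and 1 was lower, with a median of 2.49. The name of the list does not describe the state of this skin, which was not tested. Il1f5, the antagonist of the interleukin 36 receptor, averaged 6.37. Defb1, a defensin, had 4.84, 4.83, 5.92 and 5.79 and averaged 5.34, with replicates 3 and 4 about 1 log2 unit above replicates 1 and 2. Krt17 averaged 4.43 and Krt16 4.23, while Krt6a gave 0.39 and was not called. S100a8 was lower, at -2.55, above background in epidermis on 1 array, although its partner S100a9 was measured in epidermis alone and was at least 3.18-fold higher.

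Genes of hair follicle formation were higher in 18 of 28 cases and lower in 3, with a median of 1.47. Sostdc1, an inhibitor of Wnt and Bmp signals, averaged 5.31, the ligand Bmp2 5.14 and the Wnt receptor Fzd10 4.65. The ligand Wnt3 averaged 4.40. In the hedgehog pathway, the ligand gene Shh was well above background in epidermis on 4 arrays and in the reference on none, at least 2.69-fold higher. The receptor gene Ptch1, which is also a target of the pathway, was at 1.37, and the effector and target Gli1 was at 4.14. The placode ligand genes Dkk4 and Fgf20 were also measured in epidermis alone, at least 3.98-fold and 3.64-fold higher. The 3 lower genes were Bmp4, at -1.53, and Foxd1 and Tbx18, which were above background in the reference alone and were at least 3.45-fold and 2.32-fold lower. In the skin Bmp4, Foxd1 and Tbx18 are best known from the dermal cells beneath the follicle.

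Of the hair shaft and inner root sheath list, 27 of 36 genes were tested, 10 were higher and 0 were lower, with a median of 0.66. Only 13 were measured in both channels, and 4 of those were higher. The hair keratin gene Krt81 averaged 3.08. Tchh, trichohyalin, at 3.68, and Krt33a, at 3.03, were above background in the reference on only 2 and 1 of the 4 arrays. Krtap3-2, a keratin-associated protein of the shaft, was at least 7.39-fold higher. Krt71 of the inner root sheath had 0.70, 1.47, 3.80 and 0.91, above background in the reference on 2 arrays, and Krt27 had 1.36, 1.28, 2.87 and 0.59. In both, replicate 3 stood above the other arrays. In the sebaceous gland list 1 of 10 tested genes (10%) was higher, near the 10.5% of all genes, and 4 (40%) were lower, against 14.3%. The higher gene was Cidea at 2.50, above background in the reference on 2 arrays. The 4 lower genes were the lipid droplet and lipid synthesis genes Mogat2, Soat1, Plin2 and Scd1, at -2.35, -1.96, -1.72 and -1.01, Mogat2 with epidermal signal above background on 2 arrays.

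Merkel cells are sensory cells of the epidermis that carry simple keratins. Of 20 genes on their list 15 were tested, and the defining factors Atoh1 and Sox2 did not pass the filter. One gene was higher, Chga, a neuroendocrine granule protein, at 2.70. The 6 lower genes were Krt18, Krt8 at -3.17, Gfi1 at -2.73, Krt20 at -2.05, Rab3c at -1.48 and Snap25 at -1.05. The list median of -0.12 ranged from -1.05 to 0.05 over the other settings, and it was -1.05 over the genes measured in both channels. Melanocyte genes, in contrast, were higher in 9 of 11 cases and lower in 1, with a median of 1.93. Dct, an enzyme of melanin synthesis, had 6.23, 6.70, 6.20 and 6.77 and averaged 6.48. Pmel and Mlana averaged 3.82 and 3.80. Tyrp1 had 2.69, 3.11, 3.22 and 4.12, lowest in replicate 1 and highest in replicate 4. Kit was measured in epidermis alone and was at least 5.81-fold higher. The lower gene was Gpnmb at -3.19, which macrophages also make.

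Of 23 tested genes for leukocytes, Langerhans cells and epidermal T cells, 2 were higher and 9 were lower, with a median of -0.44, against 10.5% higher and 14.3% lower of all genes, and Cd207, the defining gene of Langerhans cells, did not pass the filter. The higher genes were Cx3cr1, a chemokine receptor of myeloid cells, with 0.78, 2.90, 2.47 and 3.09, and the class II gene H2-Ab1 with 0.32, 1.25, 0.93 and 2.45. Both were lowest in replicate 1 and highest in replicate 4, and another Cx3cr1 probe averaged 0.50. Among the lower genes were Cd74 at -2.26, Ptprc, which encodes CD45, at -2.13, and Fcer1g at -2.11. In the macrophage list 4 of 16 were higher and 8 lower, with a median of -1.05. The higher genes were Apoe at 3.59 and the 3 chains of complement C1q. C1qa had 0.80, 2.67, 2.31 and 3.48, and C1qc had 1.08, 2.66, 2.41 and 3.23. Again replicate 1 was lowest and replicate 4 highest. The chemokines Ccl4 and Ccl3 were at -3.23 and -3.17 and Cd14 at -2.80, Ccl4 with epidermal signal above background on 2 arrays.

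Lymphocyte genes were higher in 2 of 16 cases and lower in 7, with a median of -0.39. The higher ones were Bcl11b, a T cell factor that keratinocytes also make, at 2.22, and Cd5 at 1.02. The B cell genes Cd79b and Ms4a1 were at -3.59 and -3.53, and the T cell signalling genes Lat and Zap70 at -2.73 and -2.45.

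The fibroblast and dermal matrix list was the lowest of the 30 lists. All 27 genes were tested, 2 were higher and 22 were lower, with a median of -3.12. After Col1a1, S100a4, Col1a2 and Fn1, Pdgfra was at -4.33, Vim at -4.17 and Col3a1 at -4.10. The 2 higher genes were Postn, periostin, a matrix protein, with 4.77, 5.26, 4.34 and 5.22 and a mean of 4.90, and Dcn, decorin, at 1.82. The cell lines of the reference pool are not given in the sources used here, and the ratios alone give no share of dermal RNA in the samples. Of 12 endothelial genes 6 were tested, 0 were higher and 1, Flt1, was lower at -3.24, above background in epidermis on 2 arrays. That share, 16.7% lower, was near the 14.3% of all genes. Of 17 skeletal muscle genes 1 was higher, Tnni2 at 1.52, and 3 were lower, Tnnt1 at -2.76, Acta1 at -2.08 and Actc1 at -1.12. The muscle shares, 5.88% higher and 17.6% lower, were near the 10.5% and 14.3% of all genes.

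Of 12 red cell genes 6 were tested, 2 were higher and 0 lower, and both were adult haemoglobin genes, whose copies share sequence. Hba-a1 had 3.17, 0.78, 1.67 and 1.59 and averaged 1.80, and Hbb-bt had 3.63, 1.17, 1.89 and 2.09 and averaged 2.20, above background in the reference on 2 arrays. Replicate 1 was highest in both by more than 1 log2 unit. Without replicate 1 the means were 1.43 and 1.76.

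Genes of other organs, which the reference pool may hold, were mostly close to 0. In the hepatocyte list 1 of 11 tested genes was higher, Trf, transferrin, at 1.24, and 1 was lower, Afp. Afp was measured in the reference alone and was at least 6.89-fold lower. Each was 9.09% of the list, against 10.5% higher and 14.3% lower of all genes. In the kidney and mammary gland list 0 were higher and 3 lower, the simple keratins Krt18, Krt8 and Krt19, the last at -3.51. In the embryonic and germ cell list 3 of 20 (15.0%) were higher and 1 (5.00%) was lower, against 10.5% and 14.3% of all genes. They were the imprinted genes H19, at 3.32, and Igf2, at 1.69, and Igf2bp3, a fetal RNA-binding protein, at 1.20. The gene lower was Dlk1, also imprinted.

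All 45 genes of cell cycle and DNA replication were tested, 22 (48.9%, against 14.3% of all genes) were lower, 23 were not called and 0 were higher, with a median of -0.96. Mki67, the Ki-67 antigen, averaged -2.63, the spindle checkpoint kinase Bub1 -2.18, the ribonucleotide reductase subunit Rrm2 -2.14 and the kinetochore motor Cenpe -2.06. The highest ratios on the list were 0.10, for Tyms and Chek1. Ribosomal protein genes, by contrast, lay close to the reference. Of 50 tested, 1 was higher, Rps3 at 1.16, and 0 were lower, with a median of 0.12 that ranged from -0.03 to 0.34 over the other settings.

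Genes that respond within minutes to cell handling were mixed. Of 23 tested immediate early and heat shock genes, 5 (21.7%) were higher and 6 (26.1%) were lower. Of all genes 10.5% were higher and 14.3% lower. The list median was -0.25. The heat shock genes Hspa1a and Hspb1 were at 2.22 and 1.59 and the AP-1 family members Fosl2 and Atf3 at 1.61 and 1.58. Ier3, Hsph1, Nr4a1 and Egr1 were lower, at -2.91, -2.64, -2.55 and -2.52. Fos gave 0.84 and Jun -0.30, neither called. The tissue was held in dispase and trypsin before the RNA was made. How the cells of the reference pool were handled is not given in the sources used here. The part of handling in the ratios was not tested.

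Hox genes record position along the body axis, and their order in a cluster follows that axis. Of 39 Hox genes 32 were tested, 5 (15.6%) were higher and 8 (25%) were lower, against 10.5% and 14.3% of all genes. The median of 0.11 ranged from -0.16 to 0.60 over the other settings. The higher genes included Hoxa2 at 2.15, Hoxb2 at 1.88, Hoxa5 at 1.69 and Hoxa7 at 1.38. The lower genes included Hoxc9 at -2.99 and Hoxc6 at -1.79. Hoxb13 and Hoxa11, measured in the reference alone, were at least 4.45-fold and 3.45-fold lower. The 5 higher genes carry numbers up to 7, and of the 8 lower genes 7 carry numbers from 9 to 13, the exception being Hoxc6. This order was seen after the values were known and was not tested. All 5 higher genes were measured in both channels, but only 4 of the 8 lower genes were. The other lower genes passed the filter through the reference channel, which favours a low ratio. With both channels above background on all 4 arrays, 5 Hox genes were higher and 1 was lower.

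The Polycomb complexes PRC2 and PRC1 place and read repressive histone marks. All 31 subunit genes listed were tested, 1 was higher, Cbx2 at 1.03, and 6 (19.4%) were lower, near the 14.3% of all genes, with a median of -0.41. The lower genes were Pcgf5 at -2.34, Yaf2 at -1.79, Cbx6 at -1.61, Phf1 at -1.47, Phc3 at -1.23 and Suz12 at -1.19. Other probes of Yaf2, Cbx6 and Phf1 lay within 2-fold of the reference, at -0.66, -0.50 and -0.32. The PRC2 core genes Eed and Ezh2 gave -0.35 and -0.69 and were not called. With median centring 12 of the 31 were lower and 0 higher.

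Genes seen in 1 channel alone give only a bound. The epidermal probe was above background while the reference probe was above it on no array for 185 genes, of which 61 were called higher, and for 59 the bound was at least 2-fold. The reverse held for 710 genes, of which 81 were called lower, and for 82 the bound was at least 2-fold. The largest bounds on the epidermal side belonged to Nrarp, a Notch target, at least 18.5-fold, Nudt11 at least 18.3-fold, the stefin Cstdc6 at least 16.2-fold, Slitrk6 at least 15.0-fold and Kcns3, a potassium channel subunit, at least 11.9-fold. On the reference side stood Spinkl, at least 16.7-fold, the kidney and gonad factor Wt1, at least 14.6-fold, Mgat3, at least 12.6-fold, the matrix metalloprotease Mmp3, at least 10.7-fold, and Phex, at least 8.36-fold. The bounds rest on single-channel signals after loess and between-array scaling and stay open to dye bias as far as the dye swap leaves it.

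The 4 control samples were much alike for most genes. Over the 13185 genes well above background in both channels on all 4 arrays, the SD of the log2 ratio corrected for dye had a median of 0.101, and 10% of the genes had an SD above 0.224 and 1% above 0.462. The dye coefficient was fitted to the same 4 values and the SD was not adjusted for this, so it understates the spread. Sex-linked genes differed between the arrays. Xist, the X-inactivation RNA of female cells, had -0.12, -5.03, -4.62 and -0.27 in replicates 1 to 4. The Y-linked gene Eif2s3y had -2.57, 2.23, 2.25 and -2.86, and Ddx3y had -2.37, 1.60, 1.37 and -2.78. Xist was thus high in replicates 1 and 4 and low in replicates 2 and 3, and the Y-linked genes the reverse, so the control group held samples of both patterns, one of each per dye orientation. The labels give no sex.

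Of the 10 genes with the largest SD, some followed the same split. Mgarp had 0.46, -1.87, -1.75 and 0.53, like Xist, while Sdc4, with -0.48, 1.42, 1.66 and -0.98, and Eif2s3x, the X-linked relative of Eif2s3y, with 0.08, 1.70, 2.27 and -0.17, went with the Y-linked genes. Their SDs were 1.33, 1.31 and 1.17. Probe sequences were not checked against both sex chromosomes, and whether the Eif2s3x probe also reads Eif2s3y was not tested. Other genes stood apart in 1 array. Tas2r113 had 0.42, 0.53, -2.64 and -0.13, Mc3r had -0.39, 0.33, -2.18 and -0.94, and Akr1e1 had 0.20, -1.83, 0.93 and 0.73. Gm3383 and Gm5797, with 0.64 and 0.36 in replicate 1 and 1.79 to 2.94 in the rest, and Misp3, with -0.92 in replicate 4 and 1.28 to 1.45 elsewhere, had SDs of 0.95, 0.88 and 0.91.

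Hoxa7 was among these 10 genes. It had 1.78, 2.56, -1.22 and 2.39, with an SD of 1.23, and replicate 3 was the only array on which it was below the reference. Its adjusted p of 0.0321 in the limma fit became 4.8e-06 without replicate 3, where the mean was 2.13, and it was no longer called without replicate 1, 2 or 4, at 0.63, 1.34 and 1.42. Other Hox genes were lowest in replicate 3 as well. Hoxb7 had 0.46, 1.29, -0.56 and 1.13, Hoxa5 had 1.51, 2.38, 0.85 and 2.03, and Hoxc9 had -2.82, -2.73, -3.51 and -2.89. Of 23 Hox genes measured in both channels, 16 (69.6%) were lowest in replicate 3, against 21.2% of all such genes. Neighbouring Hox genes share a locus and are not independent, so the count is a description. Other lists leaned the same way. Replicate 3 was lowest for 27 of 43 cell cycle and DNA replication genes (62.8%) and 26 of 50 ribosomal protein genes (52.0%). In the hair follicle formation list it was lowest for 3 of 21 (14.3%).

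Genes of the leukocyte and macrophage lists also differed between arrays. Arrays of the same dye orientation were compared, replicate 3 with 1 and replicate 4 with 2. Of 34 genes of both lists measured in both channels, 28 (82.4%) were higher in replicate 3 than 1 and in replicate 4 than 2, against 22.9% of all such genes. Their median difference was 0.34 for replicate 3 over 1 and 0.40 for replicate 4 over 2, and over all genes it was 0.03 and -0.01. The B and T lymphocyte list did not share this, with 3 of 13 genes (23.1%), and in the skeletal muscle list it held for 5 of 8 (62.5%). Aif1 had -0.18, 0.76, 0.53 and 1.63, Tyrobp had -0.87, -0.11, 0.07 and 0.62, and Ctss had -3.31, -1.35, -1.78 and -0.58. Replicate 1 held the lowest value of 27 of the 34 genes (79.4%) and replicate 4 the highest value of 31. Over all 13929 genes compared, replicate 1 was lowest for 34.5% and replicate 4 was highest for 3024. A lowest value in replicate 1 was not particular to these lists. It was seen in 16 of 21 hair follicle formation genes (76.2%) and 12 of 17 basal layer genes (70.6%), but in 5 of 15 suprabasal genes (33.3%). The haemoglobin genes did not follow this order, being highest in replicate 1. No cause of these differences was tested.

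**Figure D5:**
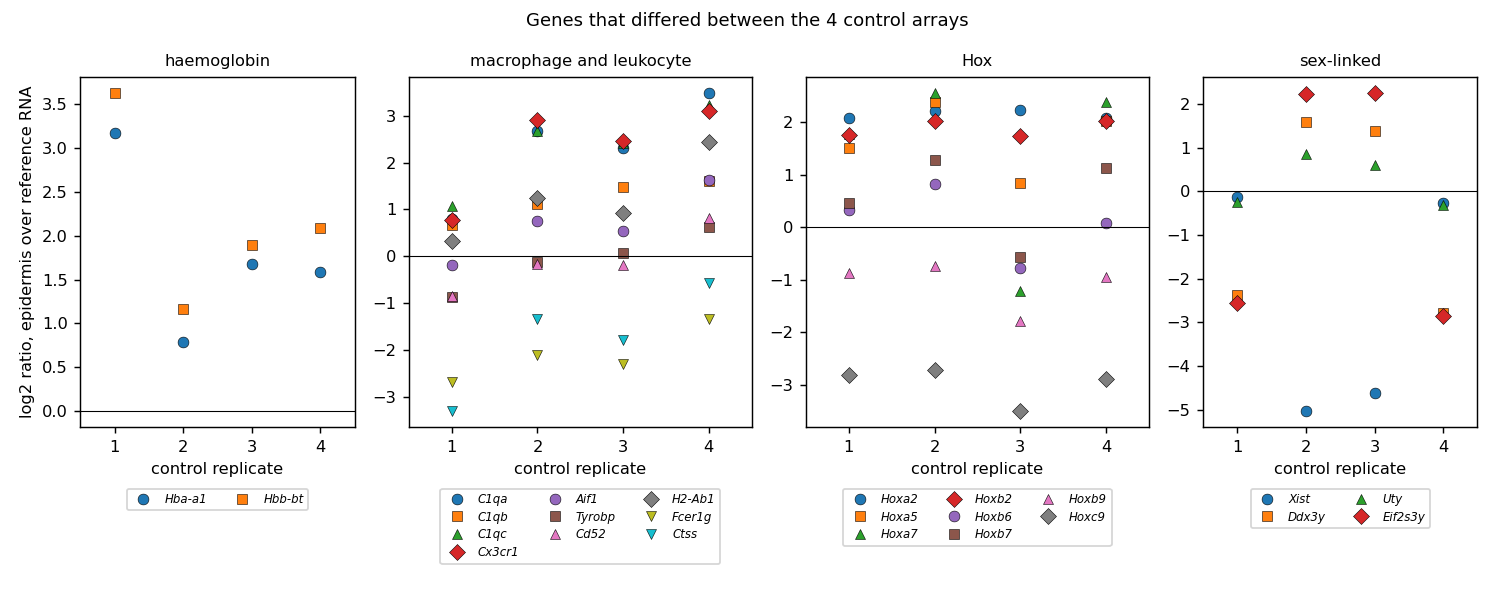
Log2 ratio of control epidermis over reference RNA (y axis) in each control replicate (x axis) for haemoglobin, macrophage and leukocyte, Hox and sex-linked genes, 1 symbol per gene and array. Hba-a1 and Hbb-bt are highest in replicate 1, C1qa is lowest in replicate 1 (0.80) and highest in replicate 4 (3.48), Hoxa7, Hoxb6 and Hoxb7 lie below 0 in replicate 3 alone while Hoxa2 and Hoxb2 do not, and Xist is at -5.03 and -4.62 in replicates 2 and 3.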

How the data were processed

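RNA of 4 control epidermis samples (group and replicate from the sample titles, dyes from the labels) was measured against reference RNA on Agilent 2-colour arrays. The authors deposited Agilent Feature Extraction 12.0.1.1 output (version from the submitters' processing notes). As deposited, spot and local background intensity were not normalized. The authors' software also gave flags for spots well above background and a Cy5/Cy3 ratio on the log10 scale, made after its own background and dye correction. The authors also deposited a table of log2 ratios. On 55249 single-spot probes it lay within 7.18e-06 of the log2 ratio of the processed signals of the control arrays, so it shares their direction and centring.

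Median spot intensity was background-corrected (normexp, offset 50) and loess-normalized within arrays in limma 3.58.1 under R 4.3.3. The offset pulls ratios of dim spots towards 0, and loess sets the centre of each array, so ratios are relative. Control spots and outlier flags were left out, and spots of a probe were averaged. For 23 member probes the fit used fewer arrays because of flags. The model was an intercept and a dye term, tested with eBayes and Benjamini-Hochberg over the 38148 member probes. The number of arrays limits the precision. Each gene was its brightest member probe. Of 4331 genes with several, 12 had probes with opposite calls. RefSeq names (GRCm38.p6) matched 28026 of 29796 accessions. The array was annotated on an older build, so RefSeq served for names, gene order and promoter windows, with Python 3.11.15. The labels and the published methods give different times in dispase and trypsin. The script was tested on simulated data. Replicates are labelled as biological, with nothing on litter.

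Genes were named by rule: the 5 markers, the 12 highest and 12 lowest genes measured in both channels on all arrays with 1 sign, up to 4 called members per list and any member behind a count of 5 or fewer, the 5 largest bounds each way and the 10 largest SDs. Other genes named, and the counts by array, were picked with their values in view. The members and lists were chosen with earlier results of these data known. Protein sequence was not used here, and a few genes that the rule would name are not reported here.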

Additional observations from a re-analysis of the deposited data

Results flagged for a closer look

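In each group of 4 control values, the highest or lowest sample was compared with the others by Dixon's criterion, for 138 named genes and 31 list medians. Chance alone sets apart about 1 group in 20, and 4 genes and 1 list were set apart here. Sostdc1 had a log2 ratio of 5.58 in replicate 2, above the other arrays. Actc1 had -0.90 in replicate 1, above the others. Gm3383 had 0.64 in replicate 1 and Misp3 had -0.92 in replicate 4, both below the others. The median of the kidney and mammary gland list was 0.008 in replicate 4, above the other arrays.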

How the results depend on the processing

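Median centring, the source of the ratios and the fold limit moved the counts of calls most. With the Feature Extraction log ratio, 2742 genes were higher and 3821 lower (5329 and 8516 probes), and with the ratios of the deposited table, 2743 genes were higher and 3819 lower (5330 and 8510 probes). The median SD was then 0.126. With median centring 4116 genes were lower, 1036 genes measured in both channels were higher and 3748 lower, and 1714 probes were higher and 6704 lower. Without a fold limit 5507 genes were higher and 7198 lower (both channels 5041 and 6052, probes 11703 and 14161), and runs numbered 208 higher and 413 lower. At 4-fold 757 genes were higher and 679 lower (both channels 687 and 599, probes 981 and 997). Leaving out each array in turn gave 1679 to 1820 higher and 2382 to 2406 lower genes, 1538 to 1649 and 2112 to 2147 in both channels, and 2599 to 2765 and 3782 to 3861 probes. The number of lists with a median above 0, 18, ranged from 14 to 19. Other filters, offsets, the dye term, the spread model and single dye orientations kept these counts within 1.5 times. Of the values of named genes under other settings with the 2-fold limit, 2571 kept direction and call, 10 gained a call, 15 lost it and 0 reversed. The lost calls were those of Hoxa7 (0.28 on the Cy3 arrays alone), Igf2bp3, Tnni2 and Trf (0.64, 0.96 and 0.72 with median centring), and Phf1 and Rps3 (-0.90 and 0.94 over the median of probes). Scaling between arrays left ratios unchanged by construction. The comparison of motif shares with 50 leading genes was void as well. A promoter sequence was at hand for 32 of the 50 highest and 36 of the 50 lowest genes. No paired analysis was possible because the comparison is between the 2 channels of each array of 1 group. Probes at background in 1 channel limit the result to bounds.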
